A study of Mus musculus with 6 samples.

Results

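The secretory granule genes described here are 10 genes picked by symbol from the deposited expression table of 22298 genes, and each symbol matched 1 row. They comprise the granins Chga, Chgb, Scg2, Scg3 and Vgf, the granule membrane proteins Ptprn and Ptprn2, the zinc transporter Slc30a8, the vesicle priming factor Cadps and the luminal protein Resp18. RNA-seq was carried out on MIN6, a mouse insulinoma line used as a β-cell model, in 6 samples, of which 3 were controls and 3 had been exposed chronically to epinephrine. In the exposure protocol cells received epinephrine at 100 nM over 3 days and were then without it over 2 days, and the sources used here do not say on which of these days RNA was taken. The controls carry no agent in their labels. Both groups are the same tumour-derived line, and the study describes its replicates in general as biological and its samples as independent. It does not name the separate cultures behind the sequenced samples, and a p-value covers the spread between these samples.

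The insulin granule is a dense-core vesicle that buds from the trans-Golgi network, acidifies, concentrates its cargo and waits for a calcium signal. Granins are acidic proteins that aggregate in this compartment, help sort hormones into it and are themselves cut into peptides. Ptprn (IA-2) and Ptprn2 (IA-2β, phogrin) span the granule membrane and are known as autoantigens of type 1 diabetes, and Slc30a8 (ZnT8) carries zinc into the lumen, where insulin crystallizes with it. In the annotation of the deposited table, 9 of the 10 genes carried a cellular component term with the words secretory granule, against 0.784% of the 12747 genes tested, and the exception was Cadps, whose terms held the words granule and dense core.

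After chronic epinephrine, the granule genes did not move as one group. Vgf rose 2.42-fold and Chgb 1.39-fold, and these were the 2 of 10 genes called by edgeR at an adjusted p (FDR, Benjamini-Hochberg over all genes tested) under 0.05. Among all genes tested, 2.63% were called, 2.02% as higher and 0.612% as lower. EdgeR called 0 granule genes lower and so did DESeq2. An unadjusted edgeR p under 0.05 was found for 6 of the 10 genes, against 17.1% of all genes tested. Of these 6, 4 were higher (Vgf, Chgb, Ptprn and Scg3) and 2 lower (Slc30a8 and Cadps). Of the 10 genes 5 were higher and 5 lower, and their median log2 fold change was -0.03, beside -0.0023 for all genes tested. At the threshold of at least 2-fold, Vgf was called among the granule genes, against 0.722% of all genes. In bulk RNA, fewer cells that express a gene and less of its RNA per cell cannot be told apart.

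Control 1 stood apart from the other controls, and the calls depend on it. Across genes, which are not independent replicates, the correlation of log2 CPM with the other controls was 0.979 and 0.978 for control 1 and 0.993 between controls 2 and 3. Of the 3 controls, control 1 was the one farthest from the other controls for all 10 granule genes, highest for 7 and lowest for 3, and it was the farthest for 65.9% of all genes tested. Without control 1, 8 of the 10 genes were called, 5 higher (Vgf, Ptprn, Chgb, Scg3 and Chga) and 3 lower (Slc30a8, Resp18 and Cadps), against 21.6% of all genes in that fit. Without any other single sample edgeR called 0 of the 10, where 3 to 5 had an unadjusted p under 0.05. With all 6 samples 6 of the 10 had, against 17.1% of all genes. That unadjusted share is not reported here for the fits without a sample. Over all genes, those fits called 0.839% and 1.48% without controls 2 and 3, and 0.364%, 0.364% and 0.593% without epinephrine samples 1, 2 and 3, shares at which 10 genes would hold few calls or none. DESeq2 on all 6 samples called 3 of the 10, namely Vgf, Chgb and Ptprn, against 5.23% of all genes.

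Short stretches of the gene starts are shown here, since the cyclic AMP response element (CRE) is bound by factors of the CREB and ATF family and epinephrine receptors act on cyclic AMP. RefSeq promoter windows on GRCm38.p6 were found for 8 of the 10 genes, all but Vgf and Slc30a8, as 9 windows since Ptprn has a pair of start sites. The 250 bases before each start were searched on both strands. The full element TGACGTCA was found in Chgb and Scg2, 2 of the 8 genes, against 1.55% of all 32851 windows. Its core TGACG, which the full element contains on both strands, was found in 5 of the 8, against 17.8% of windows. The stretches below are 30 bases each, read in the direction of the gene, with the match in capitals. They lie at chr2:132781559-132781588 for Chgb, chr1:79440076-79440105 for Scg2, chr12:102554885-102554914 for Chga, chr9:75684069-75684098 for Scg3, and chr1:75264308-75264337 and chr1:75264271-75264300 for Ptprn. Chga and Chgb are on the plus strand and the others on the minus strand. The proximal Ptprn stretch holds the core on the opposite strand, so that CGTCA is read in the direction of the gene. In the GENCODE annotation of GRCm38 the Chgb and Scg2 stretches fall in an exon of the same gene, and the others in no exon.
Chgb: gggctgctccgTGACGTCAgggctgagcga
Scg2: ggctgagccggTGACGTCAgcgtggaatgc
Chga: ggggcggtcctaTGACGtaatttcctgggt
Scg3: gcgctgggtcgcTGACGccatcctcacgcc
Ptprn, distal: cttacgccagtaTGACGcaaataggcataa
Ptprn, proximal: gggtggagatgtCGTCAttgcacgcctgca

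The full element began 72 bases before the RefSeq start in Chgb, which was called higher, and 68 bases before it in Scg2, whose log2 fold change was 0.00. The core began 44 bases before the start in Chga and 30 in Scg3, and 117 and 80 bases before the start in Ptprn. Of the other motifs searched, the NFY box CCAAT was in 3 of the 8 genes (33.8% of windows) and the E-box CANNTG in 6 (66.2%), while the TATA box TATAAA and the C/EBP-ATF element TGATGNAA were in none of the 8 (12.4% and 3.45%). Of the paralogs, Ptprn2 had 1 window, which held neither CRE form, and Ptprn had 2 windows searched. The window of Ptprn start site 1 also held neither form, and that of start site 2 held the core but not the full element. A match is a description of letters and not a site. For longer context, the windows of Chga (chr12:102554691-102554940, plus strand), Scg3 (chr9:75684057-75684306, minus strand) and Ptprn2 (chr12:116485470-116485719, plus strand) hold no annotated exon and are printed whole, with the core in capitals.
Chga: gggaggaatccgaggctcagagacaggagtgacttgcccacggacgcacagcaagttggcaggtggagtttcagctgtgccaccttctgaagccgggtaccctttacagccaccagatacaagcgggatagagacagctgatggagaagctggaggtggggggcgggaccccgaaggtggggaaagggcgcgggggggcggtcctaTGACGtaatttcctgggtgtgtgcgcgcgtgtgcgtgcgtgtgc
Scg3: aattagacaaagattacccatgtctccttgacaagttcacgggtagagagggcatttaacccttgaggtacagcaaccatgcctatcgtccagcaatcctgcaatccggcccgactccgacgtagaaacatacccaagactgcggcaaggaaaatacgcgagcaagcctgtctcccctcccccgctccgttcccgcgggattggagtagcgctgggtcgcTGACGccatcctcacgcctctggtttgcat
Ptprn2: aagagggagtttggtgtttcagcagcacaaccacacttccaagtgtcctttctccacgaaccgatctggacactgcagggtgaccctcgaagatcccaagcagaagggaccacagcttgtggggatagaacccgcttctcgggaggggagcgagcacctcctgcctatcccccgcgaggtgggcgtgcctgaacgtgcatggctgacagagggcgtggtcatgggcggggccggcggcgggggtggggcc

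The granins Scg2 and Chga were the most abundant of the 10. On the FPKM scale of the authors, which divides by transcript length and allows levels of different genes to be compared, Scg2 and Chga ranked 12th and 13th of all 22298 genes by their mean over the 6 samples. In controls the order by mean FPKM was Scg2 (3549), Chga (3302), Resp18 (1399), Chgb (1114), Scg3 (790.3), Slc30a8 (303), Ptprn (198), Ptprn2 (175), Vgf (44.7) and Cadps (33.9). Of the 9 pairs of neighbours in that order, the ranges of 5 overlapped: Scg2 with Chga, Resp18 with Chgb, Slc30a8 with Ptprn, Ptprn with Ptprn2, and Vgf with Cadps. All of these overlaps but that of Vgf with Cadps rest on control 1, and the ranges of controls 2 and 3 alone were separate. For example, the FPKM of Scg2 was 3081, 3822 and 3743 in controls 1, 2 and 3, and that of Chga 4273, 2775 and 2859. After epinephrine the order was Scg2 (3492), Chga (3101), Chgb (1515), Resp18 (1228), Scg3 (898), Ptprn (305), Slc30a8 (233), Ptprn2 (138), Vgf (104) and Cadps (26.1), and 0 of the 9 neighbouring ranges overlapped. The 10 genes together held 2.39%, 2.19% and 2.19% of all counts in controls 1, 2 and 3. In epinephrine samples 1, 2 and 3 they held 2.36%, 2.30% and 2.38%, below control 1 and above controls 2 and 3.

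Vgf encodes a neuropeptide precursor of the extended granin family and had the largest fold change of the 10. Its TMM-normalized CPM (counts scaled to a common library total) was 160.02, 74.7 and 96.1 in controls 1, 2 and 3, and 251, 257 and 291 in epinephrine samples 1, 2 and 3. Every epinephrine sample lay above every control, and control 1 was the highest control. The means were 110.3 ± 44.4 and 266 ± 21.3 CPM (SD, n = 3), and the log2 fold change was 1.27 (SE 0.24, edgeR FDR 0.0340). Vgf passed in 10 of 15 alternatives (FDR over all of them 1.5e-14 to 0.164), and did not in the 5 fits without a sample other than control 1. The gene lies on chromosome 5 of GRCm38 from 137026392 to 137033351 on the plus strand, and its counts ran from 1307 to 4594 per sample. Over the 6 fits without 1 sample, its log2 fold change stayed between 1.05 and 1.64.

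Chgb encodes chromogranin B (secretogranin-1), a granin of insulin granules. Its level was 3278, 2911 and 2878 CPM in controls 1, 2 and 3, and 4173, 4109 and 4293 in epinephrine samples 1, 2 and 3. The groups did not overlap, and the spread within each was small beside the difference. The means were 3022 ± 222 and 4192 ± 93.4 CPM (SD, n = 3), and the log2 fold change was 0.47 (SE 0.09, edgeR FDR 0.0319). Chgb passed in 7 of 15 alternatives (FDR over all of them 1.04e-09 to 0.199), and limma, the replicate block and the 5 fits without a sample other than control 1 were those in which it did not. Chgb lies on chromosome 2 from 132781278 to 132795079 on the plus strand.

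Scg3 encodes secretogranin III, which binds chromogranin A and anchors granin aggregates to cholesterol-rich granule membrane. Its level was 1819.7, 1646 and 1669 CPM in the controls and 1939, 1933 and 2063 after epinephrine, again with no overlap between groups. The log2 fold change was 0.21 (SE 0.08, 95% interval 0.02 to 0.40, edgeR FDR 0.257), so this smaller difference did not pass over all genes. Scg3 lies on chromosome 9 from 75643189 to 75684056 on the minus strand.

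The pair of most abundant granins did not differ beyond their replicate spread. Chga, chromogranin A, had 7822, 5213 and 5409 CPM in the controls and 5874, 5739.5 and 6078 after epinephrine. Scg2, secretogranin II, had 7111, 9033 and 8909 in the controls and 8485, 8324 and 8263 after epinephrine. For both genes the epinephrine samples fell inside the range of the controls, which control 1 widened upward for Chga and downward for Scg2. The log2 fold change of Chga was -0.06 (95% interval -0.41 to 0.29, edgeR FDR 0.876) and that of Scg2 was 0.00 (-0.25 to 0.25, edgeR FDR 0.997). Without control 1 the log2 fold change of Chga turned to 0.15 and passed (edgeR FDR 0.0186, over all alternatives 0.0186 to 0.957), and that of Scg2 was -0.10. Chga lies on chromosome 12 from 102554969 to 102565028 and Scg2 on chromosome 1 from 79434669 to 79440120.0 (plus and minus strand).

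**Figure D1:**
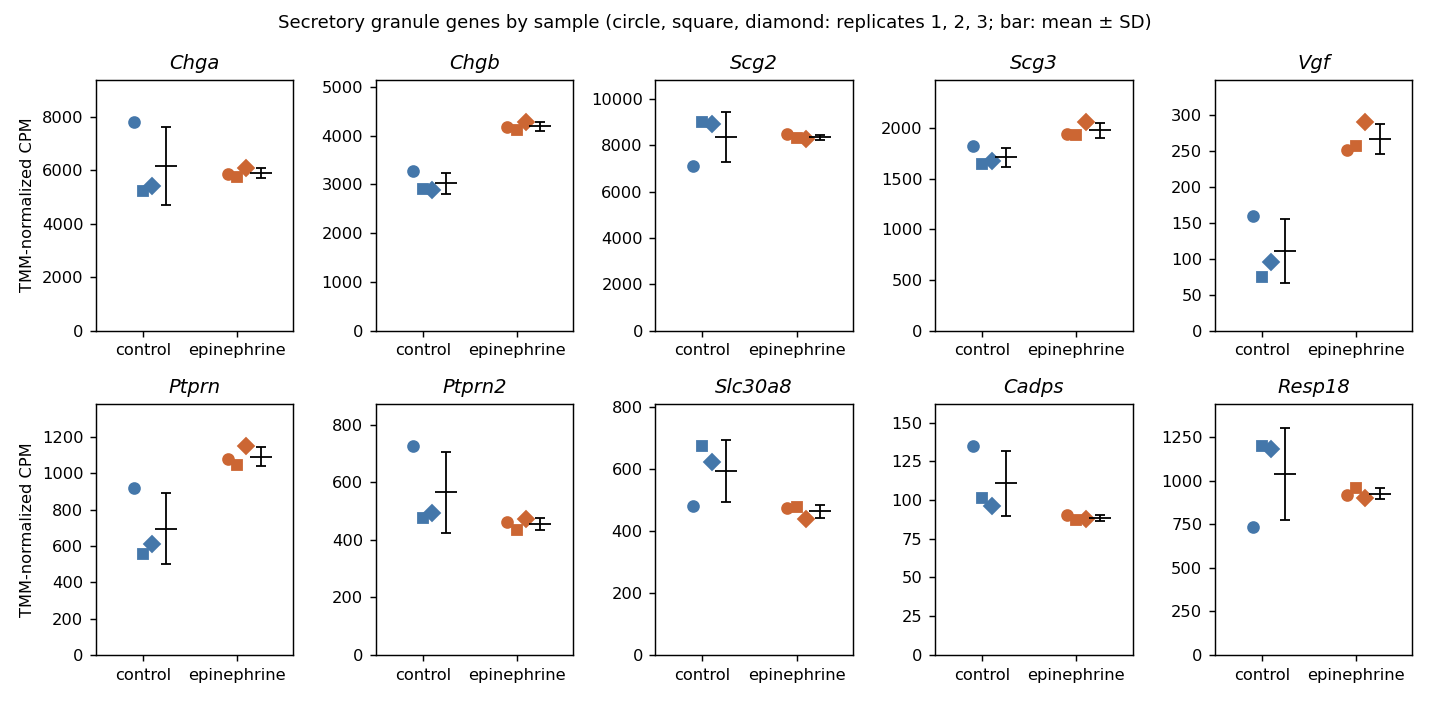
TMM-normalized CPM of each secretory granule gene by sample, with a linear axis from 0 for each gene, circles, squares and diamonds for replicates 1, 2 and 3, and the mean ± SD beside them. Vgf, Chgb, Scg3 and Ptprn are higher in every epinephrine sample than in any control, Ptprn2, Slc30a8 and Cadps are lower, and control 1 (circle) is the control that lies apart in all 10 panels.

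Control and epinephrine values were fully separated in 7 of the 10 genes, 4 with epinephrine higher and 3 with epinephrine lower, against 27.4% of all genes tested. For each of these 7, the two-sided p of an exact permutation test was 0.1, and 3 samples against 3 allow none smaller. The lower genes were Ptprn2, Slc30a8 and Cadps, and none of them passed the threshold over all genes with the 6 samples.

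The paralogs Ptprn and Ptprn2 did not pass in edgeR with the 6 samples, and their fold changes had opposite signs. Ptprn had 917, 556 and 613 CPM in controls 1, 2 and 3 and 1077.5, 1045 and 1150.0 after epinephrine, a log2 fold change of 0.65 (SE 0.17, 95% interval 0.25 to 1.05, edgeR FDR 0.10). It missed the threshold of edgeR and passed with DESeq2 (FDR 0.0159, over all alternatives 1.2e-12 to 0.358). Ptprn2 had 727, 476 and 492 CPM in the controls and 462, 434 and 473 after epinephrine, a log2 fold change of -0.31 (SE 0.16, 95% interval -0.67 to 0.05, edgeR FDR 0.367). Control 1 was the highest control for both genes, and without it the log2 fold change of Ptprn2 was -0.09.

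The Ptprn to Ptprn2 ratio of FPKM, a pair looked at after its values were seen and so not tested, was 1.16, 1.08 and 1.15 in controls 1, 2 and 3 and 2.16, 2.23 and 2.25 after epinephrine. Its mean was 1.13 ± 0.05 in controls and 2.21 ± 0.04 after epinephrine (SD, n = 3), and it does not depend on how samples are scaled. The Chgb to Chga ratio was 0.29, 0.38 and 0.37 in the controls and 0.49, 0.49 and 0.49 after epinephrine. In contrast, the Scg2 to Chga ratio was 0.72, 1.38 and 1.31 in the controls and 1.15, 1.15 and 1.08 after epinephrine, with the epinephrine samples inside the range of the controls.

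**Figure D2:**
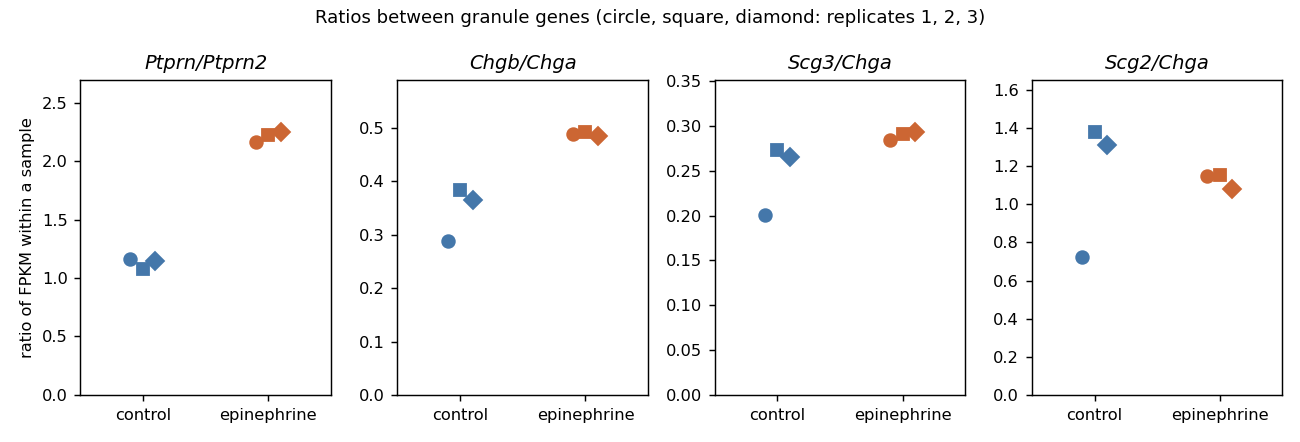
Ratio of FPKM between granule genes within each sample, on linear axes from 0, with circles, squares and diamonds for replicates 1, 2 and 3. Ptprn/Ptprn2 runs from 1.08 to 1.16 in controls and from 2.16 to 2.25 after epinephrine, while Scg2/Chga overlaps between groups.

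Ptprn (chromosome 1 from 75247027 to 75264502) and Resp18 (chromosome 1 from 75272199 to 75278415) are neighbours on the minus strand with 7696 bases between them, and they did not move together. Resp18 encodes regulated endocrine-specific protein 18, a luminal protein related to the luminal part of Ptprn. It had 735, 1200.5 and 1184.5 CPM in the controls and 921, 961 and 899 after epinephrine, a log2 fold change of -0.17 (95% interval -0.56 to 0.23, edgeR FDR 0.678). Control 1 was below all epinephrine samples and controls 2 and 3 above them. Without control 1 the log2 fold change was -0.36 and passed (edgeR FDR 1.51e-06, over all alternatives 1.51e-06 to 0.886). Of the 50-base windows of Ptprn transcripts, 2.15% were shared with Gm28294, which overlaps its exons on the opposite strand, and Gm28902 overlaps exons of Resp18 in the same way. The sources used here do not say whether counting used strand.

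Slc30a8 had 482, 675 and 625 CPM in controls 1, 2 and 3 and 474, 478 and 439 after epinephrine. All epinephrine samples were below the lowest control, but control 1 was above the highest of them by less than the spread among them. The means were 594 ± 100.4 and 464 ± 21.5 CPM (SD, n = 3), and the log2 fold change was -0.36 (SE 0.13, 95% interval -0.65 to -0.07, edgeR FDR 0.199). Without control 1 it was -0.49 and passed (edgeR FDR 3.94e-08, over all alternatives 3.94e-08 to 0.532). Slc30a8 lies on chromosome 15 from 52295553 to 52335798 on the plus strand.

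Cadps encodes CAPS1, which primes docked dense-core vesicles for calcium-triggered fusion, and had the lowest mean FPKM of the 10 in both groups. Its level was 135, 101 and 96.3 CPM in the controls and 90.3, 87.0 and 87.5 after epinephrine. The groups did not overlap, with control 1 the highest. The log2 fold change was -0.33 (SE 0.13, 95% interval -0.62 to -0.03, edgeR FDR 0.244), and without control 1 it was -0.16 and passed (edgeR FDR 0.0355, over all alternatives 0.0355 to 0.539). Cadps lies on chromosome 14 from 12372563 to 12823079 on the minus strand, and Ptprn2 on chromosome 12 from 116485720 to 117276849 on the plus strand.

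**Figure D3:**
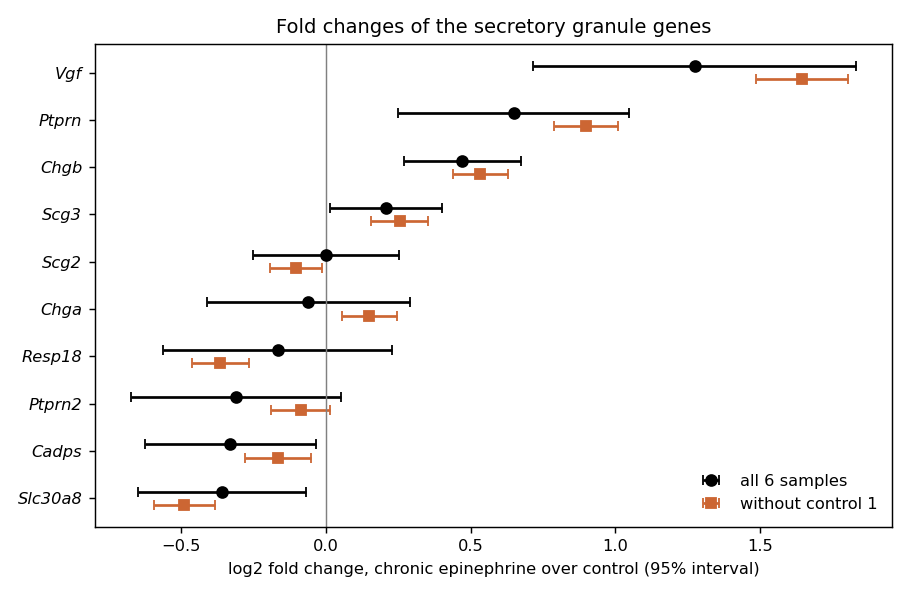
Log2 fold change of each granule gene, chronic epinephrine over control, with its 95% interval from edgeR, with all 6 samples (black circles) and without control 1 (orange squares). Vgf, Ptprn, Chgb and Scg3 lie above 0 and Slc30a8 and Cadps below 0 in both fits, while Chga turns from -0.06 to 0.15 and Scg2 from 0.00 to -0.10.

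Other genes of the granule were described from lists written with the earlier results of these samples known. Over all genes tested edgeR called 2.63% with the 6 samples and 21.6% without control 1, and DESeq2 called 5.23%, and the counts below stand beside these shares. Of 15 cargo and processing genes, 5 (33.3%) were called by edgeR, 3 higher and 2 lower, with a median log2 fold change of 0.20. DESeq2 called 6 of them, 4 higher and 2 lower, and edgeR without control 1 called 8 (53.3%), 5 higher and 3 lower. Leaving out any other single sample gave 1 to 2 calls, in fits that called 0.364% to 1.48% of all genes. Nucb2, the precursor of nesfatin-1, rose from 93.5 ± 14.9 to 206 ± 4.87 CPM (log2 fold change 1.14, edgeR FDR 0.00330). Pam, which amidates peptide hormones, rose by a log2 fold change of 0.58 and Cartpt, a neuropeptide precursor, by 0.86 (edgeR FDR 0.0198 and 0.0248). Ins1 fell from 2878 ± 59.0 to 2039.9 ± 54.2 CPM (log2 fold change -0.50, edgeR FDR 0.0152) and Npy from 2379 ± 129 to 1749 ± 57.5 (log2 fold change -0.44, edgeR FDR 0.0333). The main insulin gene Ins2 and the convertases Pcsk1 and Pcsk2, which cut proinsulin, had log2 fold changes of 0.01, 0.04 and -0.05 and did not pass. Without control 1 Ins2 turned to -0.15 and was called lower (edgeR FDR 0.0205). In that fit Pcsk1 was at 0.02 and Pcsk2 turned to 0.03, and neither passed. These 3 were named after their values were seen.

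Of 41 genes of docking, priming and calcium sensing, 37 were tested and 4 (10.8%) were called by edgeR, 3 higher and 1 lower, with a median of -0.08. Syt5, a synaptotagmin, rose from 24.0 ± 1.48 to 47.0 ± 2.68 CPM (log2 fold change 0.97, edgeR FDR 0.00199). Syt4 and Rab3d, a granule GTPase, rose by 0.43 and 0.40 on the log2 scale (edgeR FDR 0.0459 and 0.0446). Sytl4, known as granuphilin, which docks insulin granules at the plasma membrane, fell from 599 ± 55.0 to 406 ± 11.4 CPM (log2 fold change -0.56, edgeR FDR 0.0181). Of the 37 genes 26 (70.3%) had a negative log2 fold change, against 50.5% of all genes, and 15 (40.5%) had an unadjusted p under 0.05, of which 10 were lower, against 17.1% of all genes. DESeq2 called 8 of the list, 3 higher and 5 lower, and edgeR without control 1 called 15 (40.5%, against 21.6% of all genes), 6 higher and 9 lower. Without any other single sample edgeR called 1 of the list, in fits that called 0.364% to 1.48% of all genes.

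Among zinc genes other than Slc30a8, the calls with the 6 samples were all higher. Of 25 listed zinc transporters and metallothioneins, 19 were tested and 5 (26.3%) were called by edgeR, all 5 higher, with a median of 0.13. The zinc-binding metallothioneins Mt1, Mt2 and Mt3 rose by log2 fold changes of 0.61, 0.75 and 0.86 (edgeR FDR 0.0181, 0.0153 and 0.00853). The zinc importers Slc39a11 and Slc39a7 rose by 1.09 and 0.47 (edgeR FDR 0.00274 and 0.0227), the latter being a transporter of the endoplasmic reticulum. The level of Slc39a11 was low, 8.86 ± 0.842 in controls and 18.9 ± 0.639 CPM after epinephrine (SD, n = 3). Without control 1, 10 genes of the list were called, 8 higher and 2 lower, against 21.6% of all genes. Without any other single sample 1 to 4 were called, in fits that called 0.364% to 1.48% of all genes.

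The biogenesis and vacuolar ATPase lists held 0 calls by edgeR with the 6 samples, where 2.63% of all genes were called, a share at which lists of this size would hold few or none. Without control 1 they held 8 calls (26.7%) and 5 calls (26.3%), near the 21.6% of all genes, 6 higher and 2 lower in the first and 4 higher and 1 lower in the second. Of 30 biogenesis and sorting genes edgeR called 0, with 3 at an unadjusted p under 0.05 and 0 called by DESeq2, and a median of 0.00. The smallest p-values were those of Ica1 and Prkd2, with log2 fold changes of 0.36 and -0.57 (edgeR FDR 0.143 and 0.169). Of 19 subunits and partners of the vacuolar ATPase, the proton pump, edgeR called 0, with 3 at an unadjusted p under 0.05 and 0 called by DESeq2, and a median of 0.07. Atp6v0e2 and Atp6ap1 came first, with 0.26 and 0.28 (edgeR FDR 0.164 and 0.168). Nucb2, Syt5 and Slc39a11 were called in all 6 fits that left out a sample, and Ins1, Pam, Npy, Syt4, Rab3d, Sytl4 and Slc39a7 in 1 of the 6, the one without control 1. Mt1, Mt2 and Cartpt were called in 2 of the 6 and Mt3 in 4.

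**Figure D4:**
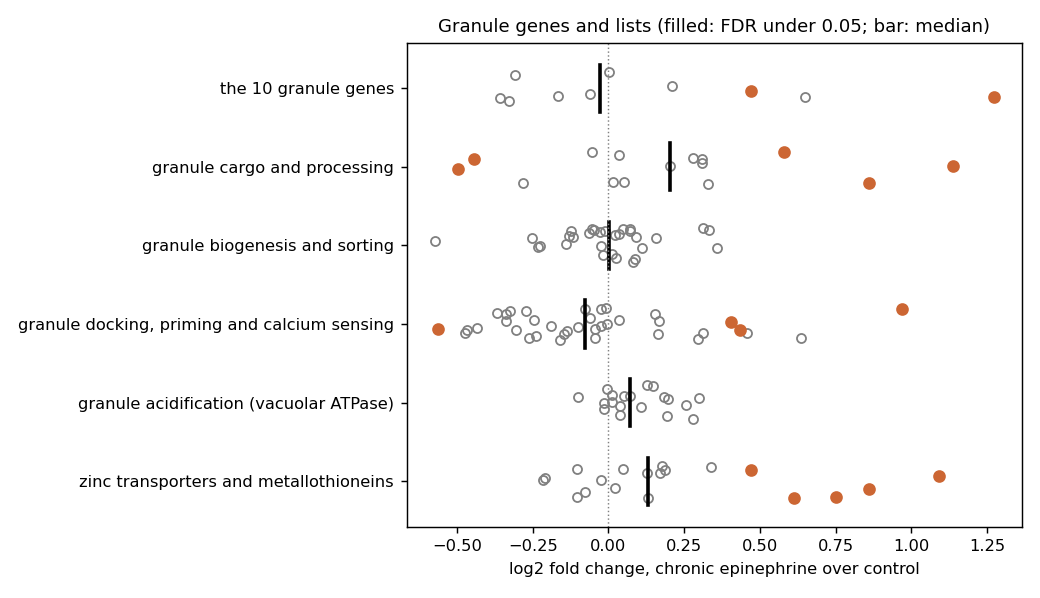
Log2 fold change, chronic epinephrine over control, of each tested gene in the granule gene group and in the lists, with filled points for an edgeR FDR under 0.05 and bars for medians. Calls lie on both sides of 0 for cargo and for docking genes, on the higher side for the zinc list, and there are 0 in the biogenesis and vacuolar ATPase lists.

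For each granule gene, the tested genes closest in pattern were taken as those with the highest Pearson r of log2 CPM over the 6 samples, given here as a description in which the group difference and control 1 are shared by all points. Closest to Chgb were Wdr54, Wipi1 and Lrrn1 (r = 0.999, 0.999 and 0.998), of which Wipi1 and Lrrn1 were called higher. The closest to Vgf were Gpr161, Atp6ap1 and Tmem248 (r = 0.997, 0.996 and 0.996). For Ptprn they were Sec61a1, Os9 and Calr (r = 0.998, 0.998 and 0.997), and for Ptprn2 Aplp2, Numa1 and Cpsf3 (r = 0.999, 0.998 and 0.998). For Scg3 they were Pitrm1, Lmf1 and Dclk1 (r = 0.997, 0.992 and 0.992), of which Dclk1 was called higher. Nearest to Chga were Eif4g1, AU040320 and Abhd2 (r = 0.999, 0.999 and 0.998) and near to Scg2 were Mrpl50 and Uimc1 (r = 0.998 for both). Slc30a8 was followed by Scrn3, Crebrf and Zim1 (r = 0.997, 0.994 and 0.993), Cadps by Chd3, Rasd1 and Dcaf7 (r = 0.999, 0.998 and 0.997) and Resp18 by Pkia, Nectin3 and Txndc16 (r = 0.999, 0.998 and 0.996).

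The libraries held 15017065 to 18127171 counts. The listed β-cell markers, Ins2, Iapp, Pdx1 and Mafa among them, were all detected, of which Ins1 and Slc2a2 were called lower, with their summed level 38997 to 57463 CPM in controls and 50987 to 53292 after epinephrine. Among 7 α-cell markers 4 were tested and 1 was called higher, Gcg, at 175 to 212 CPM in controls and 377 to 409 after epinephrine. The summed α-cell list was 1018 to 1549.7 and 1959 to 2158 CPM, most of it Ttr. Of 10 hepatocyte markers 3 were tested and Serpina1c was called lower. The hepatocyte sum was 847 to 1509 and 1563 to 1750.0 CPM, again mostly Ttr, but other hepatocyte markers were found in controls 2 and 3. Alb, Fga, Fgb, Fgg, Ahsg and Apoa1, which were not among the genes tested, were at 33.9, 6.80, 4.29, 4.69, 4.51 and 2.86 CPM in control 2 and at 82.3, 22.2, 13.5, 15.02, 15.5 and 5.32 in control 3. Each was at most 0.45 in control 1 and the epinephrine samples. Of 5 leukocyte markers 1 was tested, Cd68, which was called higher, with sums of 0.40 to 1.25 and 2.19 to 3.80 CPM and Ptprc at most 0.12. Of the neuron list 6 of 7 genes were tested, of the fibroblast list 3 of 6 and of the δ- or PP-cell list 1 of 4. These held 0 calls by edgeR, with 2, 1 and 0 genes at an unadjusted p under 0.05. Among tested markers, 6 of 10 for β cells, 2 of 4 for α cells, 2 of 3 for hepatocytes and 1 of 1 for leukocytes were under it. Of all genes tested, 17.1% were. The summed fibroblast list was 1.66 to 22.6 CPM in controls, lowest in control 2 and highest in control 1, and 1.79 to 19.5 after epinephrine. In controls 1, 2 and 3, Col3a1 was at 7.64, 0.057 and 1.69 CPM, Col1a2 at 6.93, 0.69 and 3.63, and Dcn at 2.27, 0.17 and 1.31. Col1a1 was at 4.47, 0.51 and 1.06 CPM in the controls and at 15.6, 9.58 and 0.20 in epinephrine samples 1, 2 and 3. The 8 exocrine genes were all too low to be tested, and Prss2, Cpa1, Cela3b and Pnlip were at 0 counts in all samples. Whether these markers have a part in the values of the granule genes was not tested.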

How the data were processed

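RNA-seq of 6 MIN6 samples was analysed from 1 deposited table. Per the file headers the authors deposited an estimated count and an FPKM value per gene and sample, and their processing notes name GRCm38; the aligner and counter are not given in the sources used here. Of the counts, 8.34% were not whole, and all were rounded. Genes kept by filterByExpr (12747 of 22298) were scaled by TMM and tested for epinephrine against control with edgeR 4.0.16 (glmQLFit and glmQLFTest, R 4.3.3), group being the single term. Adjusted p-values are Benjamini-Hochberg over all genes tested, and SE is the log2 fold change over the square root of F. Alternatives were other scalings and filters, DESeq2 1.42.0, limma 3.58.1 on log2 FPKM with 1 or 0.1 added, a replicate block, and each sample left out. The fit was tested on simulated data with a fixed dispersion and no sample set apart. That test therefore cannot show how the fit behaves with a sample like control 1. Genes named are the 10 members, called genes of each list (or the 2 of smallest p), and the 3 closest patterns per member. Marker genes, and genes said to be named after their values were seen, are outside this rule. Members and lists were chosen with earlier results of these data known. Positions are from GENCODE M21 and promoters from RefSeq (GRCm38.p6). A planned comparison of protein sequences was not run. Every member had at least 1307 counts in every sample. Values of some marker genes and closest patterns are not reported here.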

Additional observations from a re-analysis of the deposited data

How the results depend on the processing

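Each of the 10 genes kept its direction under all alternatives run, except Chga, at 0.15 without control 1, and Scg2, whose log2 fold change lay near 0. Scg2 was -0.0054 with DESeq2 size factors, -0.0026 with upper quartile scaling, -0.024 with library size only, -0.0052 with DESeq2, -0.0017 with no filter, -0.0015 with at least 10 counts in every sample, -0.0168 with limma on log2 FPKM with 1 added and -0.0168 with 0.1 added, and between -0.10 and 0.055 with a sample left out. With limma 1 of the 10 genes was called, Vgf, and Chgb had 0.447 (both pseudocounts) and did not pass. The numbers of the replicates were not treated as pairs (correlations of 0.0502, 0.0677 and -0.0488 between same-numbered deviations), and with a replicate block 1 gene was called, Vgf, Chgb had 0.474 and 178 of all genes were called. DESeq2 called Ptprn (0.64), 8 genes of the docking list and 734 of all genes, and limma with 1 added called 43 genes at 2-fold. With each sample left out, calls ranged from 0 to 8 of the 10 genes (0 to 5 higher, 0 to 3 lower, 0 to 1 at 2-fold), from 47 to 2798 of all genes and from 33 to 211 at 2-fold. In these fits log2 fold changes ranged from -0.17 to 0.15 for Chga, 0.44 to 0.53 for Chgb, 0.17 to 0.26 for Scg3, 1.05 to 1.64 for Vgf, 0.50 to 0.90 for Ptprn, -0.43 to -0.09 for Ptprn2, -0.49 to -0.26 for Slc30a8, -0.42 to -0.16 for Cadps and -0.36 to -0.056 for Resp18. Calls ranged from 1 to 8 among cargo genes, 0 to 8 among biogenesis genes, 1 to 15 among docking genes, 0 to 5 among vacuolar ATPase genes and 1 to 10 among zinc genes, the highest of each without control 1. The cause was not tested. No scaling moved the median of all genes by more than 0.03.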

Other observations

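Among the controls, Ptprn and Ptprn2 were both highest in control 1. The coefficient of variation over the 3 controls was 29.7% for the FPKM of Ptprn and 26.8% for that of Ptprn2, and 4.06% for their ratio. These values rest on control 1, and over controls 2 and 3 they were 6.30%, 1.73% and 4.57%, where the ratio varied more than Ptprn2. The ratio of Scg2 to Chga varied by 31.8%, more than either gene alone (11.5% and 25.5%). Control 1 was the lowest control for Scg2 and the highest for Chga. Over controls 2 and 3 the ratio varied by 3.59%, again more than Scg2 (1.48%) and Chga (2.11%). The ratio of Slc30a8 to Ptprn was 0.95 in control 1, 2.19 and 1.84 in controls 2 and 3, and 0.79, 0.82 and 0.69 after epinephrine. These pairs were looked at after their values were seen, and no explanation was tested.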
